A study of Mus musculus with 12 samples.

Results

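The genes of glucose breakdown and of the cellular response to low oxygen were followed through mouse monocytes exposed to platelets, to LPS (lipopolysaccharide, a component of bacterial outer membranes), to both or to neither. The set holds 39 genes of the 53819 listed in each deposited table, taken by symbol, and is kept as 2 classes. The glucose use class has 21 genes: 2 membrane transporters, 16 glycolytic enzymes (lactate dehydrogenase included) and 3 regulators. The class of oxygen sensing and other hypoxia-inducible factor (HIF) targets has 18 genes: 5 of the oxygen sensor and HIF itself, and 13 targets outside glycolysis. All 39 genes were found and all 39 were among the 13151 genes with enough counts to be tested.

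Messenger RNA was sequenced in 12 libraries, 3 in each of 4 groups. All were wild-type (WT) bone marrow monocytes of C57Bl6J mice. Untreated cells (NC) received neither agent, platelet cells (PLT) were kept with platelets overnight and washed, LPS cells received LPS only, and platelet plus LPS cells (PLT_LPS) were kept with platelets overnight, washed and then stimulated with LPS. The sources used here do not give the age of the mice, the doses of either agent or how long LPS was left on. Nor do they say whether replicate libraries are separate mice or cultures, so p-values measure only the spread between libraries, which may be technical.

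Glycolysis turns glucose into pyruvate and ATP without oxygen. Glucose enters through transporters such as Slc2a1 (GLUT1), is phosphorylated by hexokinase, committed by phosphofructokinase and split and oxidised by the enzymes from aldolase to pyruvate kinase. Lactate dehydrogenase then makes lactate, which leaves through Slc16a3 (MCT4). The response to low oxygen rests on HIF, a pair of Hif1a and Arnt: when oxygen is present the prolyl hydroxylases Egln1, Egln2 and Egln3 mark Hif1a for destruction, and when it is scarce HIF accumulates and binds a short motif near its target genes. Those targets include most glycolytic enzymes as well as genes of mitochondrial clearance, collagen hydroxylation and blood vessel tone. In monocytes and macrophages LPS is known to raise Hif1a and glycolysis with oxygen present. Hif1a protein is controlled largely after translation, so the messenger RNA measured here does not report its activity.

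Total counts per library were 20060867 to 32155727, and levels are given in CPM, the count divided by a library size scaled with TMM factors (trimmed mean of M-values). Adm, with 2 counts in the 3 untreated libraries together, was the member nearest to the limit of detection. Platelet replicate 1 stood apart. Set against the other platelet libraries, its counts gave chi-square values of 76.9 and 84.5 for each degree of freedom, where other pairs within groups gave 6.73 to 21.8. Its description field reads Control, while the title and the treatment field name platelets. It was analysed under its title, and the numbers of members called without it are given beside the platelet results. Of 10 monocyte markers 9 were expressed well enough to be tested, with summed levels of 32717 to 42836 CPM over the 12 libraries, and Ms4a3 was at 0 in the untreated cells. In bulk RNA, a change in the make-up of the cells and a change of RNA per cell cannot be told apart.

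Members of both classes have copies of the short HIF-binding motif close to their start sites. Promoters were read from RefSeq (mouse build GRCm38.p6) as the 250 bases before each annotated start, and searched on both strands for ACGTG or GCGTG, the letters shared by hypoxia response elements. CACGTG reads as ACGTG on both strands and counts as 2 matches. Of the 39 members 37 were matched to 55 promoters (Bnip3l and Ndrg1 were not matched). At least 1 match was present in 45 of the 55, or 81.8%, against 38.6% of all 32851 promoters and 55.3% of the 12454 promoters of tested genes. The share was 77.4% for the 31 promoters of the glucose use class and 87.5% for the 24 of the other class. The motif holds a CG pair, and members' promoters had a median of 17 CG pairs, against 15 for tested genes and 6 for all promoters. The part of base composition in the difference was not tested.

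The promoters of 5 members that rose with platelets are printed to set promoters with many matches beside those with few. They read 5′ to 3′ on the gene's own strand, with matches on either strand in capitals.
Ldha, chr7:46845554-46845803, plus strand: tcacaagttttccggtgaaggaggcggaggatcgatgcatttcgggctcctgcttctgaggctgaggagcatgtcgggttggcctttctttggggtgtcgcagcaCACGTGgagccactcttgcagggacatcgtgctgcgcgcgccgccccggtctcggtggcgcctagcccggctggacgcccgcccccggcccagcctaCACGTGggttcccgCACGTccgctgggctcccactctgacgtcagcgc
Pgk1, chrX:106186850-106187099, plus strand: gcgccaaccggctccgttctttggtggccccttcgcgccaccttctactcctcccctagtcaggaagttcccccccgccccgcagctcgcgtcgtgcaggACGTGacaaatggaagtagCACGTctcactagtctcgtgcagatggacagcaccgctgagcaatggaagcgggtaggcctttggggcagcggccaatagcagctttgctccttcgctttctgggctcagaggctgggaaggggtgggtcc
Bnip3, chr7:138909507-138909756, minus strand: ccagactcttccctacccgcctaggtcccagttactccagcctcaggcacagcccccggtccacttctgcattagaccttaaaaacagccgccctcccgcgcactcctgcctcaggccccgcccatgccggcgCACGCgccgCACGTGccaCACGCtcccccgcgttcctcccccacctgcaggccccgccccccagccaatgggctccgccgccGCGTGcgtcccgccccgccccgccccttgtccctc
Egln3, chr12:54203875-54204124, minus strand: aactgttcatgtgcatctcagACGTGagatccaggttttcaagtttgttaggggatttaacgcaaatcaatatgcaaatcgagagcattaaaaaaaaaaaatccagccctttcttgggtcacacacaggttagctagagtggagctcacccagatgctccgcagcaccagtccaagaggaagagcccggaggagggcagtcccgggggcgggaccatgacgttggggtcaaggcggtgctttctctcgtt
Tpi1, chr6:124814159-124814408, minus strand: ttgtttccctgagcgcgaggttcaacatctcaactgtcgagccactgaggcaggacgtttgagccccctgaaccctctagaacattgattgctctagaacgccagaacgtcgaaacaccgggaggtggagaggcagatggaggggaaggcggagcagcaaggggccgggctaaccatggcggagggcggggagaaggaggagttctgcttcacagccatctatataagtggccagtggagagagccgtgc
For Ldha, which has 2 annotated starts, the upstream one is shown. It has 5 matches, 4 of them in its 2 copies of CACGTG, and Bnip3 also has 5. Pgk1 has 2 matches and Egln3 has 1. Tpi1 has none in this window, although its RNA rose with platelets. A match is a description of these letters and does not show that HIF binds there.

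Untreated monocytes held several glycolytic enzymes at high levels and most other HIF targets at low ones. To compare genes, CPM was divided by the transcript length in GENCODE M21, which gave CPM per kilobase. On that scale pyruvate kinase Pkm was highest at 1394 ± 48.1 CPM per kilobase (SD, n = 3), followed by aldolase Aldoa at 1201 ± 52.0, Gapdh at 929 ± 18.9, enolase Eno1 at 757 ± 4.16, Ldha at 681 ± 7.83, triose phosphate isomerase Tpi1 at 315 ± 3.67 and glucose phosphate isomerase Gpi1 at 227 ± 2.17. These 7 levels did not overlap between neighbours in the order. Pgam1 (phosphoglycerate mutase) at 88.3 ± 1.08 and Pgk1 (phosphoglycerate kinase) at 86.9 ± 2.26 CPM per kilobase overlapped. Hexokinases and phosphofructokinases were lower: Hk3, Hk1 and Hk2 were at 42.1, 28.6 and 11.9 CPM per kilobase, and Pfkl and Pfkp at 38.6 and 30.7. Among the oxygen sensors, Egln2 was at 36.0 CPM per kilobase, Egln1 at 9.98 and Egln3 at 1.16. Eno2, Ddit4, Ak4 and Adm were the lowest members, with 0.450, 0.368, 0.205 and 0.0168 CPM per kilobase. Near-identical copies and pseudogenes exist for Gapdh, Eno1, Ldha, Pkm, Tpi1 and Pgk1, so reads they share cannot be assigned from these counts. The symbols Pgm1 and Pgm2 were exchanged between annotation releases, and the symbol alone does not settle which locus the row Pgm2 counts.

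**Figure D1:**
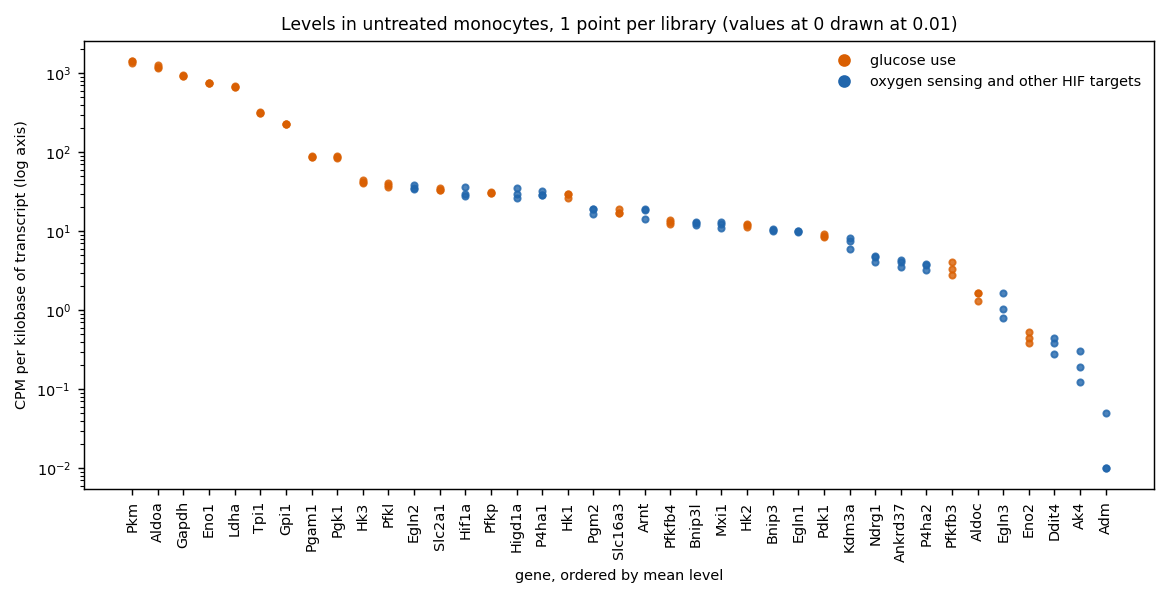
Level of each of the 39 members in untreated monocytes, in CPM per kilobase of transcript on a log axis, with 1 point per library and genes ordered by mean. The 9 highest members are glycolytic enzymes, from Pkm at 1394 to Pgk1 at 86.9, and Adm is at 0 in 2 of 3 libraries (drawn at 0.01).

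A night with platelets raised a large part of the glucose use class. Of its 21 genes 11 rose and none fell at an adjusted p under 0.05, and the median log2 fold change was 0.27. Of all genes tested 3.63% were called higher and 2.86% lower in this comparison, with a median of 0.00. The members were chosen with earlier results of these data known, so their excess over these shares is no independent finding. The platelet libraries lay wholly above the untreated ones for 12 glucose use genes and wholly below for 1, against 12.5% and 12.6% of all genes tested. The called genes were 8 of 16 enzymes, 1 of 2 transporters and 2 of 3 regulators. Summed over the 16 enzymes, levels were 11097 to 11495 CPM in the 3 untreated libraries and 13236 to 13551 CPM in the 3 platelet libraries. These sums did not overlap. Changes were small for each gene: over both classes, 9 of the 17 called members changed by less than 1.5-fold.

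Slc16a3, the lactate exporter, was at 74.0, 82.98 and 72.8 CPM in untreated cells and at 134, 139 and 149 CPM in platelet cells. It rose by 1.83-fold (log2 0.88, SE 0.08, adjusted p = 6.97e-06), with no overlap between the groups. Slc2a1, the glucose importer, was at 114, 109 and 109 CPM without platelets and 111, 137 and 139.8 CPM with them. The low platelet value is that of replicate 1, the groups overlapped, and the log2 difference of 0.23 did not pass (adjusted p = 0.145), although it did without that library (adjusted p = 0.00143).

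Ldha, which makes lactate, moved most among the enzymes, from 1198, 1191 and 1218 CPM to 2134, 1982 and 1818 CPM. The groups were far apart and the rise was 1.64-fold (log2 0.72, SE 0.07, adjusted p = 1.44e-05). Pfkl, the liver-type phosphofructokinase, went from 145, 154 and 133 CPM to 210.2, 216 and 219 CPM, a rise of 1.495-fold (adjusted p = 0.000129). Tpi1 went from 506, 501 and 512 CPM to 799, 681 and 651 CPM, with the highest value in replicate 1, and rose by 1.40-fold (adjusted p = 0.00219). Every platelet library exceeded every untreated library for these 3 enzymes.

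Another 5 enzymes rose by smaller folds. Pgam1 rose from 156, 155 and 159 CPM to 195, 225 and 213 CPM (1.35-fold, adjusted p = 0.00354). Pgk1, the first ATP-making step, rose from 163, 158 and 155 CPM to 211, 206 and 193 CPM (1.28-fold, adjusted p = 0.00718). Eno1 was at 1527, 1544 and 1536 CPM and then at 1833, 1947 and 1909 CPM (1.23-fold, adjusted p = 0.0194). None of these groups overlapped. Gapdh, often used as a reference gene, was at 1301, 1307 and 1350 CPM untreated and at 1578, 1662 and 1547 CPM with platelets (1.21-fold, adjusted p = 0.0160). Aldoa was at 1736, 1813 and 1893 CPM and then at 2336, 2187 and 2061 CPM (1.21-fold, adjusted p = 0.0277). Both were again higher in every platelet library. Pkm, the most abundant enzyme, did not pass: its log2 difference was −0.08 ± 0.07 (SE), and its groups overlapped.

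Hexokinases did not pass with platelets alone. Hk2, the inducible form, was at 66.5, 67.7 and 62.0 CPM untreated and at 90.2, 66.7 and 73.6 CPM with platelets, where only replicate 1 was clearly high (log2 0.23, adjusted p = 0.237). For Hk1 and Hk3 the log2 differences were −0.26 and 0.15. The other enzymes that did not pass, Gpi1, Pfkp, Aldoc and Eno2, had log2 differences of 0.23, 0.02, −0.36 and −0.07.

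Among the regulators, Pfkfb3 makes fructose 2,6-bisphosphate, which switches on phosphofructokinase, and Pdk1 keeps pyruvate out of mitochondria. Pfkfb3 rose from 19.1, 15.5 and 13.1 CPM to 22.6, 24.3 and 26.0 CPM (1.53-fold, adjusted p = 0.00676). Pdk1 went from 48.5, 43.7 and 44.99 CPM to 49.8, 66.5 and 64.5 CPM (1.32-fold, adjusted p = 0.0460). The Pdk1 groups were separated only narrowly, by replicate 1, and the call was lost in 15 of 21 other settings. Pfkfb4, a relative of Pfkfb3, was at 48.6, 46.2 and 43.0 CPM and then at 32.1, 39.3 and 43.6 CPM, with overlapping groups (log2 −0.26, adjusted p = 0.219).

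The number of glucose use genes called with platelets was 7 when untreated replicate 1 or 2 or platelet replicate 2 was left out, and 13 when platelet replicate 1 was. With only the 2 groups compared in the fit it was 5, and Pgk1 and Pfkfb3 then missed the threshold (adjusted p = 0.0593 and 0.0594). Aldoa and Gapdh lost their calls without untreated replicate 1 or 2 or platelet replicate 2, and Eno1 without any 1 of the untreated libraries or platelet replicate 2, with adjusted p of at most 0.135, 0.0887 and 0.0836 over the settings tried.

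In the oxygen sensing and HIF target class, 6 of 18 genes rose with platelets and none fell, with a median log2 fold change of 0.31. They were Egln3, Bnip3, Bnip3l, Ankrd37, P4ha2 and Ak4. The count was 9 without platelet replicate 1 and 5 without untreated replicate 2, where Bnip3l had an adjusted p of 0.0596. The shares called of all genes tested were 3.63% higher and 2.86% lower. The platelet libraries lay wholly above the untreated ones for 7 genes of the class and wholly below for 1, against 12.5% and 12.6% of all genes tested. HIF itself did not pass: the log2 differences of Hif1a and Arnt were 0.18 ± 0.14 and −0.31 ± 0.17 (SE), with overlapping groups.

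Egln3, the prolyl hydroxylase that is itself a HIF target, gave the largest platelet change of the 39 genes. It was at 4.38, 2.77 and 2.14 CPM in untreated cells and at 22.8, 17.3 and 16.1 CPM in platelet cells. The lowest platelet library was well above the highest untreated library, and the rise was 6.03-fold (log2 2.59, SE 0.21, adjusted p = 1.06e-06). Its relatives Egln1 and Egln2 had log2 differences of 0.18 and 0.19 and did not pass.

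Ak4, a mitochondrial adenylate kinase, went from 1.26, 0.807 and 0.510 CPM to 2.60, 3.53 and 4.04 CPM, a rise of 3.96-fold (log2 1.99, SE 0.25, adjusted p = 0.000106). Bnip3, which directs damaged mitochondria to autophagy, went from 17.8, 18.9 and 18.1 CPM to 36.7, 40.4 and 34.0 CPM, a rise of 2.03-fold (log2 1.02, SE 0.09, adjusted p = 2.27e-06). With Egln3, these are the 3 members that rose at least 2-fold. Bnip3l, the relative of Bnip3, rose by 1.35-fold, from 41.3, 38.8 and 42.5 CPM to 58.0, 53.9 and 53.9 CPM (adjusted p = 0.00763). Ankrd37, a small ankyrin-repeat protein, rose by 1.90-fold, from 3.26, 3.75 and 4.05 CPM to 8.90, 6.47 and 5.75 CPM (adjusted p = 0.00497). P4ha2, a subunit of the enzyme that hydroxylates collagen, rose by 1.75-fold, from 8.63, 7.22 and 8.30 CPM to 13.7, 16.2 and 12.3 CPM (adjusted p = 0.00282). No untreated library reached a platelet library for any of these 5 genes. Ndrg1, P4ha1, Ddit4, Higd1a, Kdm3a, Mxi1 and Pgm2 had log2 differences of −0.24 to 0.60 and did not pass. Adm had 2 counts in untreated and 3 in platelet libraries, too few to compare.

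Platelet RNA was present in the exposed cells. Of 20 platelet and megakaryocyte markers 17 were tested, 10 were higher and 1 was lower with platelets. Gng11, a platelet G protein subunit, was at 1.65 to 2.07 CPM in untreated and at 148, 77.1 and 73.6 CPM in platelet libraries, highest in replicate 1. The summed marker level was 3912 to 4580 CPM untreated and 3840 to 6554 CPM with platelets. Most of the untreated sum was Pf4, at 3542 to 4249 CPM, and which cells it came from was not tested. Gp1bb, Gp5 and Gp6 were at 0 in untreated cells. Summed erythroid markers were 1.16 to 1.61 CPM and 11.9 to 24.5 CPM, and summed neutrophil markers 360 to 384 CPM and 197 to 221 CPM. Of 7 neutrophil markers tested, though, only 1 was called lower, none was called higher and 4 had a positive log2 difference (median 0.11). Basophil and mast cell markers (4 of 5 tested higher) summed to 1.44 to 2.60 CPM untreated and 7.92 to 9.79 CPM with platelets, and dendritic markers (3 of 7 higher) to 2.41 to 4.66 CPM and 6.88 to 9.25 CPM. The part of platelet RNA or of these other cells in the levels of the members was not tested.

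**Figure D2:**
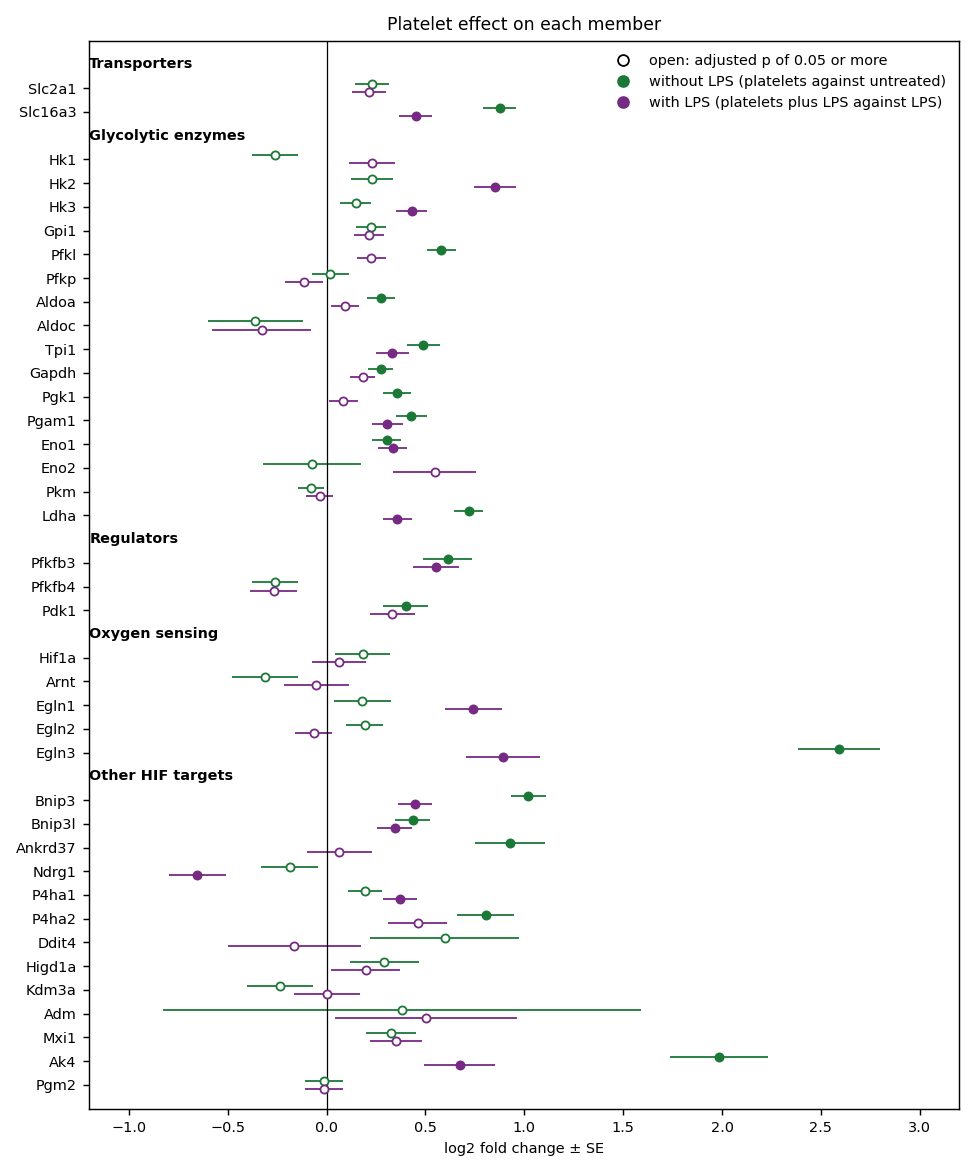
Platelet effect on each member as log2 fold change ± SE from the fit over 12 libraries, without LPS (green) and with LPS (purple), with filled points for an adjusted p under 0.05. Egln3, Ak4 and Bnip3 lie furthest right without LPS (2.59, 1.99 and 1.02) and nearer to 0 with LPS (0.89, 0.67 and 0.45), and Ndrg1 with LPS is the filled point left of 0.

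LPS raised both glucose use transporters and the regulator Pfkfb3, and 8 of 16 enzymes. Of the 21 glucose use genes 11 rose and 1 fell with LPS against untreated cells, with a median log2 fold change of 0.20. In this comparison 27.7% of all genes tested were called higher and 23% lower, and the LPS libraries lay wholly above or below untreated ones for 32.1% and 28.5% of them, against 14 and 3 of the 21. The calls were split 9 higher to 5 lower with upper-quartile factors and 7 higher to 11 lower with library size alone, settings that shift the median log2 of all genes by −0.20 and −0.38. All called rises but those of Tpi1 and Gapdh kept their direction in every scaling tried. Markers of other cells moved with LPS as well, but not all in the same direction. Summed basophil and mast cell markers were 1.44 to 2.60 CPM untreated and 104 to 107 CPM with LPS. Of the 5 tested, however, 2 were called higher and 1 lower, with a median log2 of −1.30, so the sum does not stand for the list. Summed dendritic markers were 2.41 to 4.66 CPM and 76.7 to 92.7 CPM, with 4 of 7 tested called higher and 1 lower. Their part in the changes of the members was not tested.

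Slc2a1 was at 352, 343 and 346 CPM with LPS, far above each of the untreated libraries (3.14-fold, log2 1.65, SE 0.09, adjusted p = 1.90e-10). Slc16a3 was at 184, 196 and 175 CPM (2.42-fold, adjusted p = 2.66e-09). Both transporters therefore rose, and neither overlapped with the untreated group. Pfkfb3 was at 123, 104 and 122 CPM, the largest rise among the glucose use genes (7.32-fold, log2 2.87, SE 0.13, adjusted p = 1.83e-11). Its relative Pfkfb4 fell to 33.6, 28.4 and 29.7 CPM (1.502-fold lower, adjusted p = 0.000534), below every untreated library. The regulators thus moved in opposite directions, and Pdk1, at 40.9, 35.3 and 39.5 CPM, had a log2 difference of −0.25 that did not pass.

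Of the 16 enzymes 8 rose with LPS. Pfkl reached 369.9, 376 and 364 CPM (2.57-fold, adjusted p = 2.48e-10). Pfkp, the platelet-type phosphofructokinase, went from 131, 126 and 126 CPM to 224, 215 and 227 CPM (1.74-fold, adjusted p = 3.23e-06). Eno2, the neuronal enolase, went from 1.23, 1.09 and 1.46 CPM to 3.58, 5.40 and 5.01 CPM (3.68-fold, adjusted p = 5.19e-06). For each of these 3 the LPS libraries all lay above the untreated ones. Pgk1 was at 251, 243 and 239.9 CPM (1.54-fold, adjusted p = 2.36e-06), Aldoa at 2583, 2593 and 2438 CPM (1.40-fold, adjusted p = 2.39e-05) and Ldha at 1645, 1566 and 1729 CPM (1.37-fold, adjusted p = 8.31e-05). Aldoa and Ldha kept their direction but not their calls with library size alone (adjusted p = 0.131 and 0.361).

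Tpi1 was at 612, 631 and 560.4 CPM and Gapdh at 1543, 1516 and 1480 CPM with LPS (log2 0.25 and 0.20, adjusted p = 0.0220 and 0.0161). Both directions turned with library size alone (log2 −0.13 and −0.18, of which that of Gapdh passed) and, for Gapdh, with upper-quartile factors (log2 −0.01). Their calls were lost without untreated replicate 1 or 2 or LPS replicate 1, and that of Tpi1 also without LPS replicate 2, with adjusted p of up to 0.683 for Tpi1 and 0.954 for Gapdh over the settings tried. Hk2 was at 64.8, 69.0 and 64.1 CPM with LPS, which overlapped with untreated cells (log2 0.01, adjusted p = 0.936). Pkm and Gpi1 had log2 differences of −0.09 and −0.06 and did not pass, and neither did Hk1 (−0.17), Aldoc (−0.28), Hk3 (0.16), Pgam1 (0.11) or Eno1 (0.11). The last 3 turned negative with library size alone and then passed (adjusted p = 0.0309, 0.0102 and 0.0042).

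**Figure D3:**
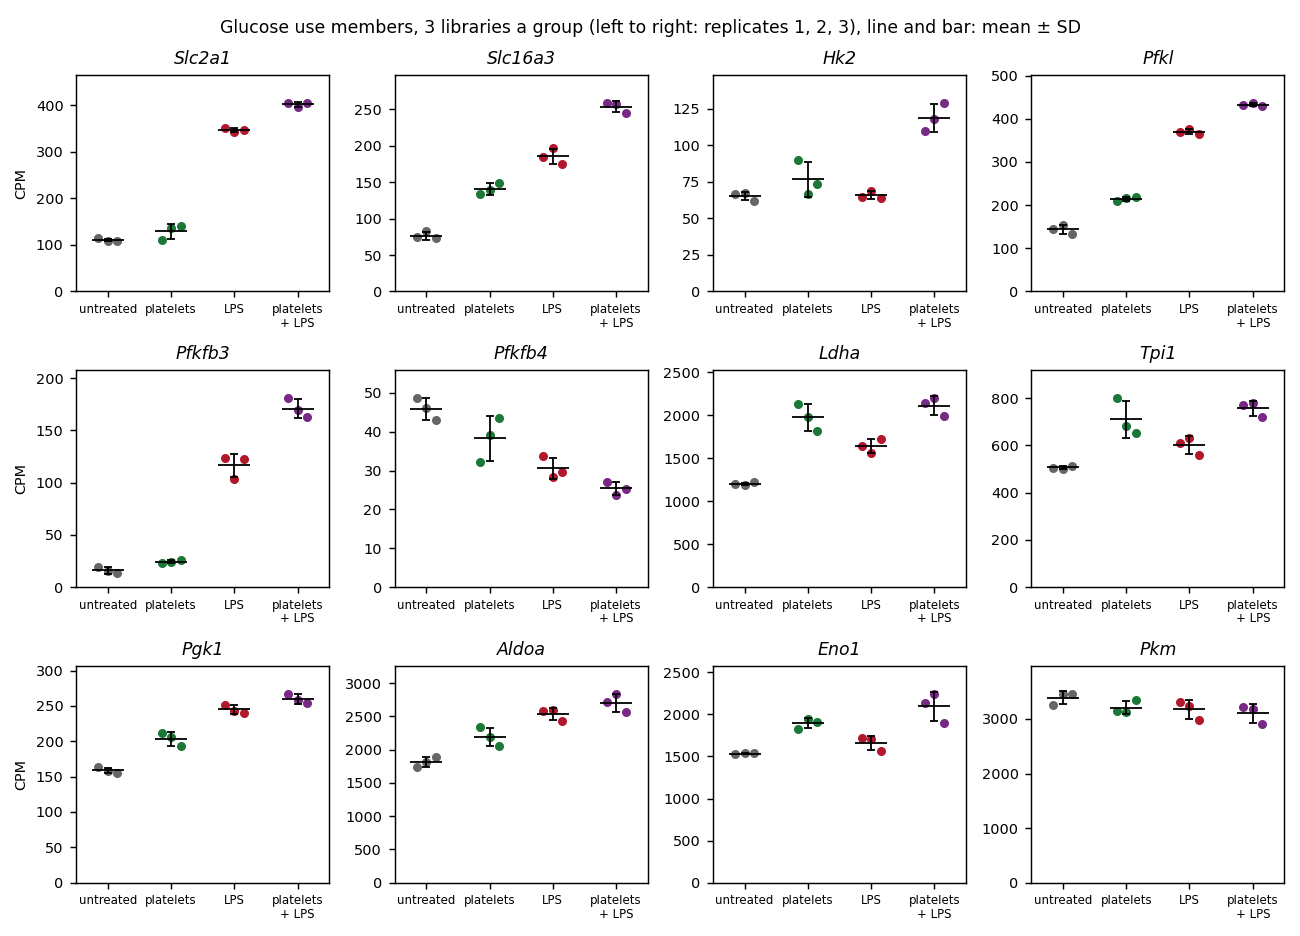
Levels of 12 glucose use members in CPM (linear axes from 0), with 1 point per library in untreated, platelet, LPS and platelet plus LPS cells, and lines and bars for mean ± SD of 3. Slc2a1, Pfkl and Pfkfb3 step up with LPS, Ldha and Tpi1 with platelets, and Hk2 is highest where both agents were given (110.1 to 129 CPM), while Pkm lies between 2910 and 3460 CPM throughout.

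In the oxygen sensing and HIF target class 11 of 18 genes rose with LPS and 1 fell, with a median log2 fold change of 0.51, and the same numbers lay wholly above and wholly below the untreated libraries. With upper-quartile factors the split was 10 higher to 3 lower, and with library size alone 7 to 3. The shares called of all genes tested were 27.7% higher and 23% lower, and 32.1% and 28.5% lay wholly above and below. Hif1a was at 169, 139.7 and 134 CPM untreated and at 531, 489 and 502 CPM with LPS (3.44-fold, log2 1.78, SE 0.14, adjusted p = 2.64e-08). The groups were far apart. Its partner Arnt was at 50.8, 52.2 and 38.5 CPM and then at 57.2, 50.6 and 52.7 CPM, which overlapped (log2 0.18, adjusted p = 0.389).

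The 3 prolyl hydroxylases differed in their LPS values. Egln3 was at 13.6, 15.4 and 13.5 CPM, above all untreated and below all platelet libraries (4.58-fold over untreated, adjusted p = 2.58e-07). Egln2 went from 73.0, 81.2 and 73.3 CPM to 117, 115 and 106 CPM (1.48-fold, adjusted p = 8.88e-05), a call lost with library size alone (adjusted p = 0.0696). Egln1 was at 35.6, 35.8 and 36.3 CPM and then at 32.0, 47.0 and 32.9 CPM, with overlap and 1 high library (log2 0.06, adjusted p = 0.783).

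Ak4 reached 14.8, 14.3 and 16.3 CPM with LPS, the largest rise of a gene with more than a few counts in untreated cells (17.6-fold, log2 4.13, SE 0.24, adjusted p = 4.18e-10). Adm, the vessel-dilating peptide adrenomedullin, was at 0, 0.0701 and 0 CPM untreated and at 1.45, 1.38 and 0.872 CPM with LPS. With 2 counts against 90, the ratio was 55.1, with a 95% exact interval of 14.8 to 462 that covers counting error only. Ankrd37 was at 16.98, 17.10 and 17.11 CPM (4.62-fold, adjusted p = 3.12e-08) and Bnip3 at 67.6, 61.5 and 63.9 CPM (3.52-fold, adjusted p = 6.54e-11), both clear of the untreated libraries. Ddit4, an inhibitor of mTOR signalling, rose from 0.491, 0.666 and 0.782 CPM to 2.90, 2.40 and 1.80 CPM (3.66-fold, adjusted p = 0.000471). All 5 of these targets were at or below the level of Bnip3 in untreated cells.

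Smaller rises were those of the histone demethylase Kdm3a, the other collagen hydroxylase subunit P4ha1, and the stress gene Ndrg1. Kdm3a went from 40.2, 36.1 and 28.9 CPM to 53.1, 54.4 and 54.3 CPM (1.54-fold, adjusted p = 0.00550), P4ha1 from 130.03, 117 and 115 CPM to 172, 153 and 168 CPM (1.36-fold, adjusted p = 0.000446) and Ndrg1 from 11.9, 13.7 and 13.9 CPM to 18.1, 17.2 and 18.9 CPM (1.37-fold, adjusted p = 0.0144). None overlapped, but all 3 lost their calls with library size alone, with adjusted p of 0.269, 0.565 and 0.649, and Ndrg1 also without untreated replicate 1. Mxi1, an antagonist of Myc, fell from 30.6, 29.0 and 25.5 CPM to 18.5, 18.04 and 20.1 CPM (1.51-fold lower, adjusted p = 0.00122), with no overlap. P4ha2, at 7.75, 7.03 and 6.48 CPM, and Bnip3l, at 48.9, 48.7 and 41.9 CPM, overlapped with untreated cells and did not pass (log2 −0.18 and 0.19), and neither did Higd1a or Pgm2.

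**Figure D4:**
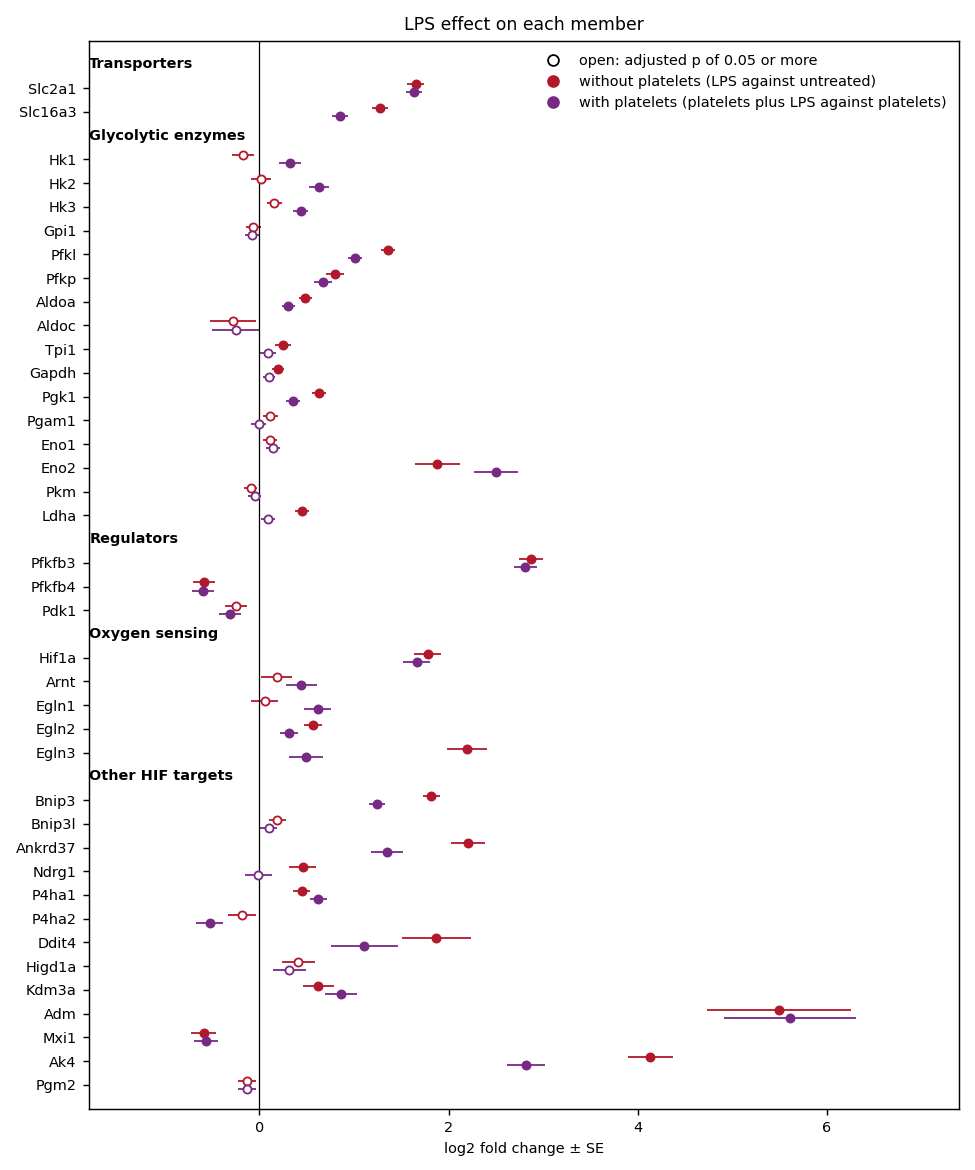
LPS effect on each member as log2 fold change ± SE from the fit over 12 libraries, without platelets (red) and after platelets (purple), with filled points for an adjusted p under 0.05. Adm, Ak4 and Pfkfb3 lie furthest right, and Pfkfb4 and Mxi1 lie left of 0 in both comparisons. The small differences of Tpi1, Gapdh, Eno1 and several other enzymes change sign with library size alone.

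Among cells given LPS, those that had met platelets held more hexokinase, lactate exporter and lactate dehydrogenase RNA. Of the 21 glucose use genes 8 were higher and none lower in platelet plus LPS cells than in LPS cells, with a median log2 fold change of 0.23. The shares of all genes tested were 4.41% higher and 2.87% lower, around a median of 0.01. Here too the members had been chosen with earlier results of these data known. Without overlap, 16 glucose use genes were higher and 2 lower, against 14.7% and 12.4% of all genes tested. The enzyme sums were 12685 to 13401 CPM with LPS and 14000 to 15362 CPM with both, without overlap. The count was 5 without platelet plus LPS replicate 1, 5 without its replicate 2 and 13 with only the 2 groups compared. It was also 13 without platelet replicate 1, which enters only through the filter, the scaling and the shared estimate of spread.

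Hk2 was at 110.1, 118 and 129 CPM with both agents, above all libraries of the other 3 groups. It rose by 1.80-fold over LPS alone (log2 0.85, SE 0.11, adjusted p = 0.000119) and by 1.55-fold over platelets alone (adjusted p = 0.000118), while neither agent alone gave a difference that passed. The test of the difference between the platelet effects gave log2 0.62 (SE 0.15, adjusted p = 0.0537). Hk3, the hexokinase of myeloid cells, went from 154, 151 and 149 CPM with LPS to 199, 199.6 and 212 CPM with both (1.35-fold, adjusted p = 0.00290). Hk1 was at 100.5, 91.1 and 102 CPM and then at 113, 116 and 115 CPM, which did not overlap but did not pass (log2 0.23, adjusted p = 0.300).

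Slc16a3 rose from its LPS level to 259, 256 and 244 CPM (1.37-fold, adjusted p = 0.00310), Pfkfb3 to 181, 169 and 163 CPM (1.47-fold, adjusted p = 0.00803) and Ldha to 2145, 2197 and 1986 CPM (1.28-fold, adjusted p = 0.00675). Eno1 went from 1714, 1705 and 1566 CPM to 2141, 2245 and 1899 CPM (1.26-fold, adjusted p = 0.00918), Tpi1 to 771, 779 and 720.2 CPM (1.26-fold, adjusted p = 0.0247) and Pgam1 from 179, 166 and 163 CPM to 211, 215 and 203 CPM (1.24-fold, adjusted p = 0.0262). All 6 genes were higher in each library with both agents than in any with LPS alone. Without platelet plus LPS replicate 1 or 2 the calls of Eno1, Tpi1 and Pgam1 were lost, with adjusted p of at most 0.0638, 0.104 and 0.108 over the settings tried. Those of Tpi1 and Pgam1 were also lost without LPS replicate 3, that of Tpi1 without LPS replicate 1, and those of Pgam1 and Pfkfb3 without LPS replicate 2. Pgam1 also lost its call without platelet plus LPS replicate 3. Slc2a1, at 405, 396 and 405 CPM, and Pfkl, at 433, 437 and 429 CPM, were above every LPS library but did not pass (log2 0.21 and 0.23, adjusted p = 0.177 and 0.0782). Eno2, at 7.53, 6.55 and 6.30 CPM, likewise did not (log2 0.55, adjusted p = 0.157). The other 9 genes of the class had log2 differences of −0.33 to 0.33 and did not pass.

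In the other class 6 of 18 genes were higher and 1 was lower with both agents than with LPS alone, with a median log2 fold change of 0.27. The count of 7 became 4 without LPS replicate 2 or platelet plus LPS replicate 1 or 2, and 8 without platelet replicate 1. The shares called of all genes tested were 4.41% higher and 2.87% lower. Without overlap, 9 genes of the class were higher and 1 lower, against 14.7% and 12.4% of all genes tested. Egln3 rose to 27.1, 28.0 and 23.8 CPM (1.85-fold, log2 0.89, SE 0.19, adjusted p = 0.00796) and Egln1 to 62.6, 68.5 and 56.2 CPM (1.67-fold, log2 0.74, SE 0.14, adjusted p = 0.00458). For Egln1 these 3 libraries stood above the other 9. Hif1a, at 528, 477 and 585 CPM, overlapped with LPS alone and did not pass (log2 0.06, adjusted p = 0.863).

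Bnip3 rose to 87.1, 89.9 and 86.1 CPM (1.36-fold, adjusted p = 0.00415), Bnip3l to 60.5, 61.5 and 55.5 CPM (1.27-fold, adjusted p = 0.0289), P4ha1 to 209, 211 and 218 CPM (1.29-fold, adjusted p = 0.0148) and Ak4 to 25.3, 22.7 and 24.3 CPM (1.59-fold, adjusted p = 0.0340). None overlapped with LPS alone. Leaving out any library of the 2 groups compared ended the Ak4 call, as did leaving out untreated replicate 2 (adjusted p up to 0.126 over the settings tried). Bnip3l lost its call without any LPS library or platelet plus LPS replicate 1 or 2, and P4ha1 without LPS replicate 2 or any platelet plus LPS library, with adjusted p of at most 0.133 and 0.0859. Ndrg1 was the only gene of the class called lower. It was lower with both agents, at 11.6, 13.9 and 8.92 CPM, than with LPS alone (1.57-fold lower, log2 −0.65, adjusted p = 0.0108), and overlapped with untreated cells. Ankrd37, at 17.8, 20.9 and 14.9 CPM, overlapped with LPS alone (log2 0.07, adjusted p = 0.880). P4ha2, at 10.01, 10.5 and 8.88 CPM, was above every LPS library but did not pass (log2 0.46, adjusted p = 0.0774). The 8 members of the class not named here had log2 differences of −0.16 to 0.50 and did not pass. Platelet markers moved here too: 10 of 17 tested were higher and 1 lower, and Gng11 was at 1.53 to 2.43 CPM with LPS and 58.2 to 71.6 CPM with both. The summed platelet markers did not rise, at 4160 to 4938 CPM with LPS and 3948 to 4196 CPM with both. Summed basophil and mast cell markers were 104 to 107 CPM with LPS and 82.8 to 93.9 CPM with both, although 2 of 5 tested were called higher and 0 lower. All 4 erythroid markers tested were higher, with sums of 0.0362 to 0.650 CPM with LPS and 7.08 to 9.35 CPM with both. Summed neutrophil markers were 229.5 to 289.7 CPM and 157 to 180.2 CPM. This fall of the sum is not that of the list: of 7 tested, 6 had a positive log2 difference (median 0.44). Only 1 was called lower and none higher. The part of these cells' RNA in the differences was not tested.

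**Figure D5:**
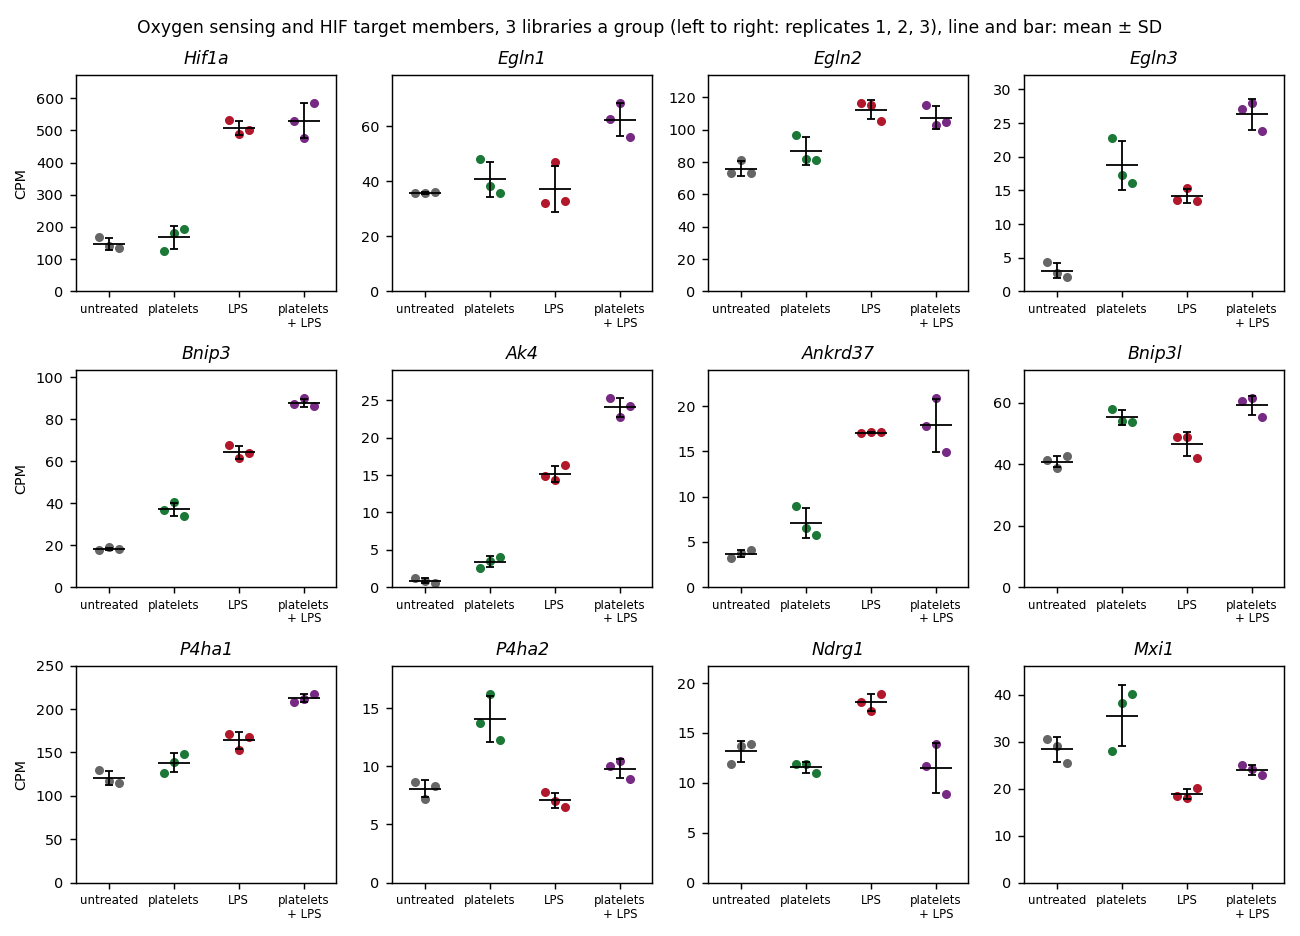
Levels of 12 oxygen sensing and HIF target members in CPM (linear axes from 0), with 1 point per library in the 4 groups, and lines and bars for mean ± SD of 3. Hif1a steps up with LPS, Egln1 is highest with both agents, Egln3, Bnip3 and Ak4 are higher with each agent and highest with both, and Ndrg1 is highest with LPS alone (17.2 to 18.9 CPM).

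The platelet comparisons without and with LPS share no library, but they come from 1 fit with a shared filter, scaling and estimate of spread. Their calls are set side by side and are not independent. Platelet markers were higher in both comparisons (10 of 17 tested in each), and their part in the shared calls was not tested. The platelet difference was positive for 30 of 39 members in each, for 27 in both, and negative in both for 6. Over all genes tested the shares were 49.9% and 52.3% positive, 33.4% positive in both and 31% negative in both. There were 17 members called higher without LPS and 14 with it. Of these, 10 were called higher in both, which is 58.8% of the first list and 71.4% of the second: Slc16a3, Tpi1, Pgam1, Eno1, Ldha, Pfkfb3, Egln3, Bnip3, Bnip3l and Ak4. Of all genes tested 216 were called higher in both, which is 45.2% of those called higher without LPS and 37.2% of those with it. Because the members were chosen with earlier results of these data known, their larger shares are no independent finding. In 26 of 39 members the platelet log2 value was smaller with LPS than without. It was larger with LPS for the other 13, and for 6769 of the 13151 genes tested.

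Only 3 members passed the test of that difference, the interaction of platelets and LPS, in which 0.859% of all genes tested were called higher and 0.722% lower. All 3 are in the HIF target class and had a smaller platelet effect with LPS. Egln3 had a log2 platelet effect of 2.59 without and 0.89 with LPS, a difference of −1.70 (SE 0.28, adjusted p = 0.00486). For Ak4 the effects were 1.99 and 0.67, a difference of −1.31 (SE 0.31, adjusted p = 0.0465), and for Bnip3 they were 1.02 and 0.45, a difference of −0.57 (SE 0.12, adjusted p = 0.0286). On the CPM scale, mean Egln3 went from 3.10 to 18.7 without and from 14.2 to 26.3 with LPS, Bnip3 from 18.3 to 37.0 and from 64.3 to 87.7, and Ak4 from 0.860 to 3.39 and from 15.1 to 24.1. The rise in CPM was thus larger with LPS for Bnip3 and Ak4 and smaller for Egln3, so for Bnip3 and Ak4 the sign of the difference depends on the scale. The Egln3 call was kept in all 20 other settings, while that of Bnip3 was lost in 11 and that of Ak4 in 14. With single libraries left out, only Egln3 remained called without untreated replicate 2 or 3, platelet replicate 2, LPS replicate 1 or 3 or any platelet plus LPS library. With the replicate block the count was also 1. No glucose use gene passed by edgeR's quasi-likelihood test, where 3 were higher and 4 lower at an unadjusted p under 0.05, while DESeq2 called 5 (1 higher, 4 lower), limma-voom 0 and edgeR without platelet replicate 1 called 4.

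Against platelets alone, cells given both agents showed the LPS pattern again, in a comparison where 27.6% of all genes tested were higher and 21.8% lower. It shares libraries with the comparisons already given. Groups lay apart for 30.2% of all genes tested in the higher direction and 24.6% in the lower, against 12 and 1 of the glucose use genes and 12 and 3 of the others. In the glucose use class 11 of 21 genes rose and 2 fell (8 to 5 with upper-quartile factors and 7 to 10 with library size alone), and in the other class 12 of 18 rose and 2 fell (9 to 3 and 7 to 5). Rises of at least 2-fold in glucose use were those of Pfkfb3 (7.02-fold), Eno2 (5.65-fold), Slc2a1 (3.11-fold) and Pfkl (2.01-fold). In the other class they were those of Ak4 (7.06-fold), Hif1a (3.16-fold), Ankrd37 (2.54-fold), Bnip3 (2.37-fold) and Ddit4 (2.16-fold). Adm had 136 counts against 3, a ratio of 56.7 with a 95% exact interval of 19.0 to 278. All 5 oxygen sensing genes rose here, Egln1 by 1.53-fold, Egln3 by 1.41-fold and Arnt by 1.36-fold, although Egln2 (log2 0.31) turned to −0.05 with library size alone and the calls of Arnt and Egln3 were lost with DESeq2 size factors. Arnt was at 26.5, 40.9 and 46.5 CPM with platelets and 47.7, 51.6 and 55.7 CPM with both, and without the low platelet replicate 1 its call was lost. So was that of Hk1, which was at 72.9, 96.9 and 106 CPM with platelets. Kdm3a was at 20.1, 33.7 and 35.3 CPM and then at 55.5, 50.7 and 55.8 CPM (1.82-fold, adjusted p = 0.000470).

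There were 4 members that fell: Pfkfb4, Pdk1, P4ha2 and Mxi1 (log2 −0.59, −0.31, −0.52 and −0.57). Mxi1 was at 28.1, 38.3 and 40.2 CPM with platelets and at 25.0, 24.2 and 22.8 CPM with both, without overlap. Pfkfb4 was at 27.2, 23.8 and 25.2 CPM with both agents, the lowest values of the 4 groups. Pdk1 was at 53.2, 46.2 and 46.4 CPM, which overlapped with platelets alone, and its call was lost without platelet replicate 2 or 3 or platelet plus LPS replicate 2 or 3 (adjusted p up to 0.139 over the settings tried). Of the 8 enzymes that had risen with platelets alone, Pfkl, Pgk1 and Aldoa rose again here (log2 1.01, 0.36 and 0.30), although Pgk1 and Aldoa turned slightly negative with library size alone. Ldha, Tpi1, Eno1 and Gapdh had log2 differences of 0.09 to 0.14 that did not pass. With library size alone these 4 turned negative and passed (adjusted p = 0.0044, 0.0046, 0.0152 and 0.0019). Pgam1 had −0.01 (−0.37 with library size alone, which also passed).

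Genes of the same pathways outside the 39 were read from lists drawn up by function. Of all genes tested 3.63% were called higher and 2.86% lower with platelets, and 27.7% and 23% with LPS. On top of LPS the platelet shares were 4.41% and 2.87%, and in the interaction test 0.859% and 0.722%. Of 18 other tested glycolysis genes 4 rose and none fell with platelets, among them the glucose transporter Slc2a6 (1.87-fold), Pgm1 (1.51-fold) and the pyruvate dehydrogenase kinase Pdk3 (1.58-fold). With LPS 4 rose and 9 fell: Slc2a6 rose by 37.3-fold and Pgm1 by 2.07-fold, while the transporter Slc2a3 fell by 3.65-fold. On top of LPS, platelets raised 4 and lowered none, including Ldhb, the lactate dehydrogenase subunit partnered with Ldha (1.84-fold, adjusted p = 0.00479), Pdk3 (1.39-fold) and Pgm1 (1.29-fold). Slc2a6 was the only 1 of the 18 to pass the interaction test (log2 −0.91, adjusted p = 0.00357).

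The pentose phosphate pathway branches from glycolysis and makes NADPH. Of its 9 tested genes none rose and 1, Pgd, fell with platelets (1.22-fold lower, adjusted p = 0.0263), and none rose and 1, Tkt, fell when platelets preceded LPS (1.20-fold lower, adjusted p = 0.0403). With LPS alone 2 rose, Pgd by 1.57-fold and H6pd by 1.52-fold, and none fell, where 27.7% of all genes tested were called higher. A difference between this pathway and the glycolysis genes was not tested. Of 28 other tested hypoxia genes 6 rose and 2 fell with platelets. Vegfa, the vascular growth factor, went from 11.2, 8.63 and 10.5 CPM to 24.2, 27.5 and 26.6 CPM (2.59-fold, adjusted p = 2.61e-06), and from 16.3, 17.9 and 14.7 CPM with LPS to 48.0, 41.8 and 44.6 CPM with both (2.74-fold, adjusted p = 1.08e-06). The Vegfa libraries with platelets were above those without at each LPS state. The clock and hypoxia repressor Bhlhe40 rose by 2.57-fold with platelets alone, and the glycogen branching enzyme Gbe1 fell by 1.49-fold. With LPS 17 of the 28 rose and 5 fell, with log2 values of −5.38 to 11.22 over the list. The 3 named here were chosen by smallest p, not by largest change. They are the collagen cross-linking enzyme Lox, Cited2 (3.54-fold), a restrainer of HIF, and Pdgfb (5.14-fold). Lox had 3 counts in the untreated libraries together and was at 18.8, 13.9 and 20.5 CPM with LPS. When platelets preceded LPS 5 rose and 2 fell, with Pdgfb 1.72-fold higher and Cited2 1.49-fold lower than with LPS alone.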

How the data were processed

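Per the labels, RNA was purified with a Qiagen RNeasy Plus Micro kit, pre-amplified as cDNA with a SMARTer Ultra Low Input kit and turned into Nextera XT libraries. The authors deposited raw counts, as whole numbers of reads for each gene symbol. The submitters' processing notes list, with no roles, fastp 0.23.1 and STAR 2.7.9a, then Subread 2.0.1, featureCounts and Salmon 1.5.2. The sources used here do not give the genome build, annotation or strand setting.

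Samples were grouped by title. Counts were filtered with filterByExpr, scaled by TMM and fitted over all 12 libraries as 4 group means (8 residual degrees of freedom) with the quasi-likelihood test of edgeR 4.0.16 in R 4.3.3. Tests were two-sided, with Benjamini-Hochberg adjustment over 13151 genes and a threshold of 0.05, which is what "called" means. Standard errors came from the F statistic. The SD describes 3 libraries. The members and lists were chosen with earlier results of these data known, and the platelet rise of glycolytic genes is no independent finding. Members called in any comparison are given with their values, the others by range, and up to 3 genes of each further list by smallest p. Per-length levels used 1 coding transcript a gene of GENCODE M21, and promoters came from RefSeq (GRCm38.p6). The alternatives tried in edgeR were other scaling (DESeq2 size factors, library size alone, upper-quartile factors), filters (none, or at least 1 CPM and 10 counts in 3 libraries), a replicate block, a fit of the groups compared only and each library left out. DESeq2 1.42.0 and limma-voom (limma 3.58.1) were other tools. The method was tested on simulated counts. Reads without molecular identifiers are not independent molecules, so counting intervals cover counting error only.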

Additional observations from a re-analysis of the deposited data

Results flagged for a closer look

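The platelet effect differed between cells without and with LPS for 3 members, by the interaction term of the fit over 12 libraries. The difference in log2 platelet effect was −1.70 for Egln3 (adjusted p = 0.00486), −0.57 for Bnip3 (adjusted p = 0.0286) and −1.31 for Ak4 (adjusted p = 0.0465). In each case platelets raised the gene in both states, in 3 of 3 libraries over every library of the group compared, and the fold was smaller when LPS had been given.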

How the results depend on the processing

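Of the 15 platelet plus LPS against LPS calls 8 were kept in every alternative, of the 17 platelet calls 10, of the 24 LPS calls 16, of the 27 platelet plus LPS against platelet calls 17, and of the 3 interaction calls 1. Glucose use members called numbered 11 for platelets against untreated and 5 with only the groups compared, 8 for platelets plus LPS against LPS and 13 with only the groups compared, and 0 for the interaction, 1 with library size alone, 1 with no filter and 5 with DESeq2. Leaving out single libraries gave 7 to 13, 5 to 13 and 0 to 4 glucose use calls in these 3 comparisons, 10 to 14 for LPS against untreated, and 11 to 13 for platelets plus LPS against platelets. In the other class the ranges were 5 to 9 for platelets, 11 to 14 for LPS, 4 to 8 for platelets plus LPS against LPS, 11 to 15 against platelets and 1 to 3 for the interaction. The causes were not tested.

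With library size alone, the LPS against untreated log2 values turned to −0.37 for Hk2, −0.23 for Hk3, −0.13 for Tpi1, −0.18 for Gapdh, −0.27 for Pgam1 and −0.27 for Eno1. All of these but that of Tpi1 passed as lower. Gapdh was at −0.0050 with upper-quartile factors. For platelets plus LPS against platelets the log2 values turned, with library size alone, to −0.046 for Hk1, −0.055 for Aldoa, −0.27 for Tpi1, −0.25 for Gapdh, −0.0033 for Pgk1, −0.22 for Eno1, −0.26 for Ldha, −0.046 for Egln2 and −0.26 for Bnip3l. Those of Tpi1, Gapdh, Eno1, Ldha and Bnip3l passed as lower. Library size alone makes no correction for composition.

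Replicate numbers are shared by the groups. Same-numbered libraries deviated together with a correlation of −0.228 to 0.140 (18 pairs, 1 over 0.1), and differently numbered ones with −0.189 to 0.239 (36 pairs, 5 over 0.1). With 3 libraries a group these values cannot decide whether libraries were paired by mouse or culture. With the replicate block the calls in the glucose use class were 9, 12, 7 and 12 for platelets, LPS, platelets plus LPS against LPS and platelets plus LPS against platelets, and 0 for the interaction. Those in the other class were 6, 12, 6, 14 and 1.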
